A study of Mus musculus with 16 samples.

Results

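The 38 ribosome biogenesis genes described here were listed by symbol for their known roles in making ribosomes. They were followed in mouse liver after partial hepatectomy, the removal of part of the liver that makes the remaining hepatocytes divide. Of the 38 genes, 37 had a probe set of their own on the array, and 35 had enough signal to be tested among 13577 genes. Mrto4 was represented only by a probe set that it shares with pseudogenes, and Rrp9 and Rrp12 did not pass the filter on low signal (at least 4 of 16 arrays above the median of their own array).

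Ribosomes are assembled in the nucleolus, where RNA polymerase I copies the ribosomal RNA genes into a long precursor. Small nucleolar RNAs and their protein partners modify this precursor, box C/D particles by methylation and box H/ACA particles by conversion of uridine to pseudouridine, while a large processing complex cuts out the RNA of the small subunit and other factors assemble the large subunit. A hepatocyte that grows before division makes more ribosomes, and many of the genes for this machinery are known targets of the transcription factor MYC.

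All mice were of a mixed 129SV/C57BL/6 background and carried a floxed Met gene, the gene of the hepatocyte growth factor receptor, together with a tamoxifen-inducible Cre (labelled Metff/ff:ERCre+/+). The 4 arms were MET_FLOX, the floxed control; MET_KO, in which Met exon 16 was deleted; MET_FLOX_canertinib; and MET_KO_canertinib. Canertinib, an inhibitor of the EGF receptor family of kinases, was mixed into the diet with an aim of 80 mg/kg, and RNA was taken at days 0, 2, 7 and 14 after hepatectomy. The labels describe the inhibition as systemic and name no promoter specific to hepatocytes. They do not say whether the floxed arms received tamoxifen, and they give neither the age of the mice nor the number of mice behind an array. With 1 array per arm and day, no condition was repeated, and the error of each comparison came from what arm and day left over across the 16 arrays.

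Signals were Affymetrix MAS5 values on a linear scale, with each array scaled to a trimmed mean of 500. Array medians fell into separate ranges: 6 arrays (MET_FLOX and MET_KO at days 0, 2 and 7) lay between 156.4 and 188.7 and the other 10 between 244 and 265. Because all canertinib arrays lay in the upper range, the difference between drug and no drug could be compared within that range at day 14 alone. The ratio of the 3′ to the 5′ control probe sets for Gapdh, a sign of RNA quality, was 0.950 to 2.24 on canertinib arrays and 0.765 to 0.869 without drug. The Met probe set of highest mean did not separate the genotypes (982 to 2066 on knockout arrays and 1041 to 2014 on floxed arrays), and since its place relative to exon 16 was not known here it checks nothing about the deletion. All 10 hepatocyte markers passed the filter, with a summed signal of 164832 to 584465. At day 2 against day 0, 0 of them passed the threshold used below, with a median log2 difference of -0.10 and 2 of 10 above 0. Arms still differed at day 2, where the summed signal ran from 164832 to 563757. In the day 2 response of MET_KO_canertinib against the other arms, described below, 9 of the 10 were above 0 (median 0.86).

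The SD of a member on the log2(signal + 16) scale over 16 arrays had a median of 0.37 (0.19 in Imp3 to 0.97 in Bysl), against 0.49 for all genes tested. An SD over 1 was found in 0 of the 35 members and in 913 of all genes.

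Promoter sequence is shown for the E-box, the motif that MYC binds. The 6-base E-box CACGTG, which reads the same on both strands, was searched in RefSeq windows (GRCm38.p6) from 250 bases before to 50 bases after each gene start. Of the 33 members found in that table, 7 (21.2%) held at least 1 match, against 8.09% of 27025 genes. The members were Rrn3 (with 2 matches), Mybbp1a, Wdr43, Imp4, Tsr1, Pes1 and Nop2. The matches that lay before the gene start are printed 5′ to 3′ with the E-box in capitals; all lie on the plus strand.
Rrn3, chr16:13780457-13780516: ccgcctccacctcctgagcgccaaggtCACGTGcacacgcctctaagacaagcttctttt
Rrn3, chr16:13780624-13780683: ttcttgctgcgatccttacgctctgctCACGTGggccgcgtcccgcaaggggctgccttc
Imp4, chr1:34439681-34439740: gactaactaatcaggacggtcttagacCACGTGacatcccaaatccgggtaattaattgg
Nop2, chr6:125131796-125131855: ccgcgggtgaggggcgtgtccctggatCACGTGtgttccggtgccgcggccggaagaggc
A match describes the letters only and gives no evidence of binding.

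The first comparison asked which members moved at day 2. At day 2 against day 0, with arm as a block, 0 of 35 members passed the threshold (limma, adjusted p 0.05), where 52 of 13577 genes (0.383%) did. The median member difference was 0.16 on the log2 scale, with 24 of 35 above 0, and the median of all genes was -0.06, with 42.8% above 0. At an unadjusted p below 0.05 there were 5 members (14.3%) and 1425 genes (10.5%). By contrast, all 19 tested cell cycle genes were above 0 at day 2 and 14 of them passed the threshold, with a list median of 2.27. They were led by the survivin gene Birc5 (4.67 ± 0.56, SE, adjusted p = 0.00435), the ubiquitin ligase partner Ube2c (4.15 ± 0.54) and the mitotic kinase gene Cdk1 (4.05 ± 0.47).

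**Figure D1:**
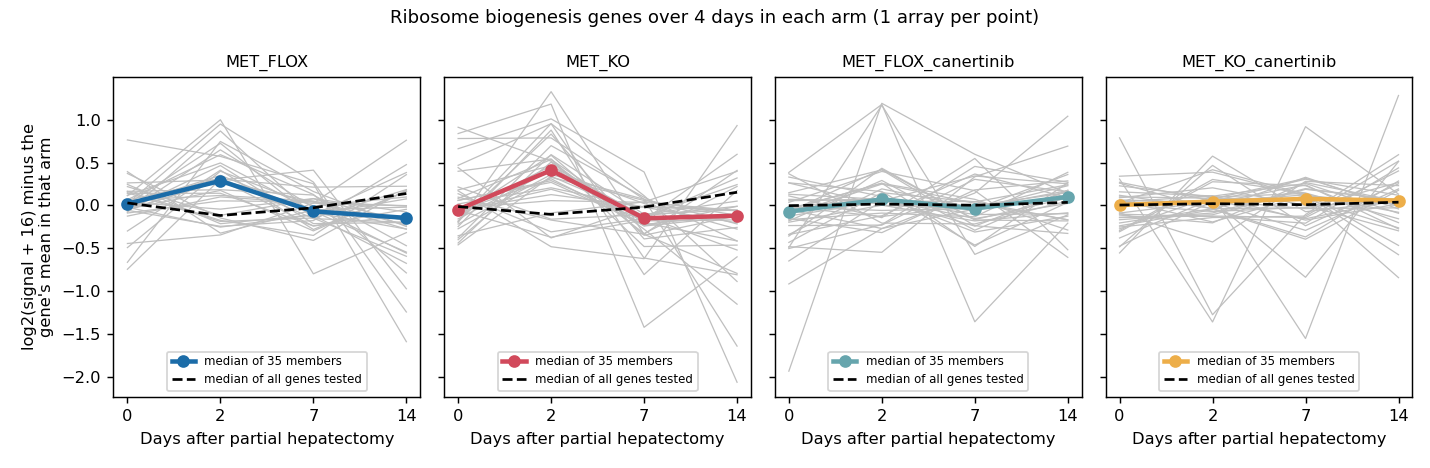
Each grey line is 1 of 35 ribosome biogenesis genes in 1 arm, as log2(signal + 16) minus its mean over the 4 days of that arm, against day after partial hepatectomy; coloured lines are the member median and dashed lines the median of all genes tested, with 1 array per point. The member median stood at 0.29 in MET_FLOX and 0.41 in MET_KO at day 2, and at 0.07 and 0.04 in the canertinib arms.

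Within single arms the members' course differed. In MET_FLOX, day 2 was the highest of the 4 days for 23 of 35 members (65.7%), against 18.6% of all genes. MET_KO had 27 such members (77.1%), against 21.9%. MET_FLOX_canertinib had 12 (34.3%), against 25.5%, and MET_KO_canertinib had 9 (25.7%), against 20.4%. Both arms without drug had their highest value at day 2 in the same 21 members (60%), against 11.3% of all genes. Since each arm is 1 series of 4 arrays, the difference between arms in these counts was not tested.

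The day 14 arrays of the arms without drug lay in the other range of array medians, so the count was repeated over days 0, 2 and 7 alone. It was again 23 in MET_FLOX (all genes 26.2%) and 27 in MET_KO (31.1%), and it was 18 in MET_FLOX_canertinib (33.7%) and 11 in MET_KO_canertinib (34.1%). In MET_KO_canertinib the members' share, 31.4%, was thus near that of all genes. Rrn3, Dkc1 and Ddx21 were highest at day 2 in all 4 arms, and Wdr43 and Wdr75 in none.

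**Figure D2:**
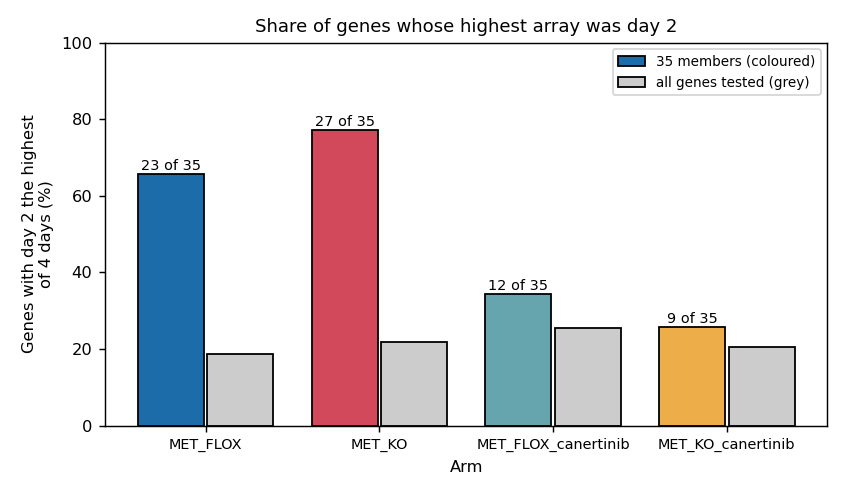
Bars give the percentage of genes whose highest of 4 arrays in an arm was day 2, for 35 members (coloured) and all genes tested (grey). The members' bars are 65.7% and 77.1% without drug and 34.3% and 25.7% with canertinib, while the grey bars lie between 18.6% and 25.5%.

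The size of the day 2 difference in each arm came from 1 array against 1. Without drug its member median was 0.22 for the floxed and 0.34 for the knockout arm; on canertinib these were 0.20 and 0.03, beside medians for all genes of -0.15, -0.10, 0.02 and 0.02. A difference over 1 on the log2 scale was seen in 2 members of MET_FLOX (4.96% of all genes) and 6 of MET_KO (7.25%), and in 2 and 1 members of the canertinib arms, floxed (6.64%) and knockout (4.68%). The 6 in MET_KO were Nhp2, Ncl, Nop56, Gar1, Fbl and Mybbp1a. Cell cycle genes had medians of 3.07, 3.74, 2.49 and 0.65 in the same order of arms.

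**Figure D3:**
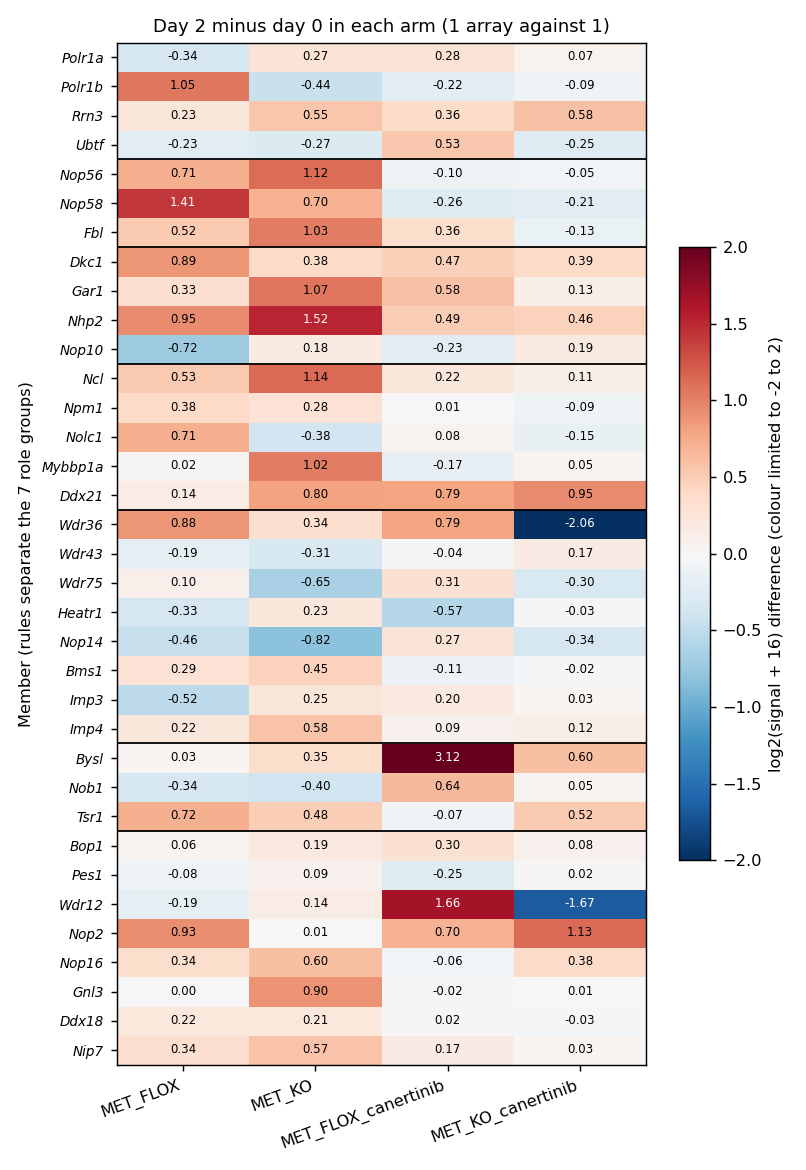
Colour and number give the log2(signal + 16) difference of day 2 minus day 0 for 35 members (rows, grouped by role) in each arm (columns), each from 1 array against 1. Box C/D and box H/ACA genes are red in both arms without drug except Nop10 in MET_FLOX at -0.72, and the darkest cells are Bysl at 3.12 in MET_FLOX_canertinib and Wdr36 at -2.06 in MET_KO_canertinib.

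Among the 7 role groups, the medians of the 3 box C/D genes lay farthest apart between arms with and without drug, a gap that was not tested. Their median day 2 difference was 0.71 in MET_FLOX and 1.03 in MET_KO, and -0.10 and -0.13 in the canertinib arms without and with Met deletion. Fbl encodes fibrillarin, the methyltransferase of the particle. Its signal at days 0, 2, 7 and 14 was 1587, 2282.5, 1422 and 1436 in MET_FLOX and 1271, 2611, 1607 and 1665.5 in MET_KO. In MET_FLOX_canertinib it was 1312, 1683, 1438 and 1257, and in MET_KO_canertinib 1625, 1482, 1528 and 998. Day 2 was the peak in 3 arms, with the day 2 arrays of both arms without drug above all 14 others. The day 2 difference over arms was 0.44 ± 0.18 (SE, adjusted p = 0.390).

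Nop56, a core protein of the same particle, read 563, 929.7, 501 and 364 over the 4 days in MET_FLOX and 398, 887, 265 and 538 in MET_KO. It read 586, 545, 348 and 498 in MET_FLOX_canertinib and 438, 423, 123 and 973 in MET_KO_canertinib. A day 2 peak was present without drug, whereas the highest of all 16 arrays was day 14 of MET_KO_canertinib. The day 2 difference was 0.42 ± 0.38 (SE, adjusted p = 0.763). Nop58, its partner, differed at day 2 by 1.41 in MET_FLOX and 0.70 in MET_KO, and by -0.26 and -0.21 in the canertinib arms.

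The box H/ACA group had the highest list median at day 2, 0.53, with 3 of 4 members above 0. Nhp2, an RNA-binding protein of the particle, measured 1282, 2486, 1251 and 843 in MET_FLOX and 1462, 4235, 1327 and 964 in MET_KO. On canertinib it measured 1135.5, 1606, 1060.4 and 1052 on the floxed background and 842.5, 1162, 1373 and 1090 on the knockout background. Day 2 was above day 0 in 4 of 4 arms, by 0.95, 1.52, 0.49 and 0.46, though day 0 and day 2 values overlapped across arms. The difference of 0.86 ± 0.27 (SE) had an adjusted p of 0.234. Leaving out the day 2 array of MET_KO_canertinib raised it to 1.12 and past the threshold, the single case among 16 such fits. The second probe set of Nhp2 differed by 0.68.

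Dkc1, the pseudouridine synthase dyskerin, and Gar1, another subunit, were higher at day 2 in 4 of 4 arms, each by 0.53 (adjusted p = 0.331 and 0.344). Nop10, a small subunit of the particle, read 9115, 5543, 6691 and 6840.2 in MET_FLOX and 6535, 7380.4, 6683 and 6477 in MET_KO. Under canertinib the values were 5646, 4821, 3615 and 4110.5 in the floxed arm and 4044, 4607, 5994 and 4639 in the knockout arm. The day 0 array of MET_FLOX was the highest of the 16, and the day 2 difference was -0.15 ± 0.19 (SE).

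**Figure D4:**
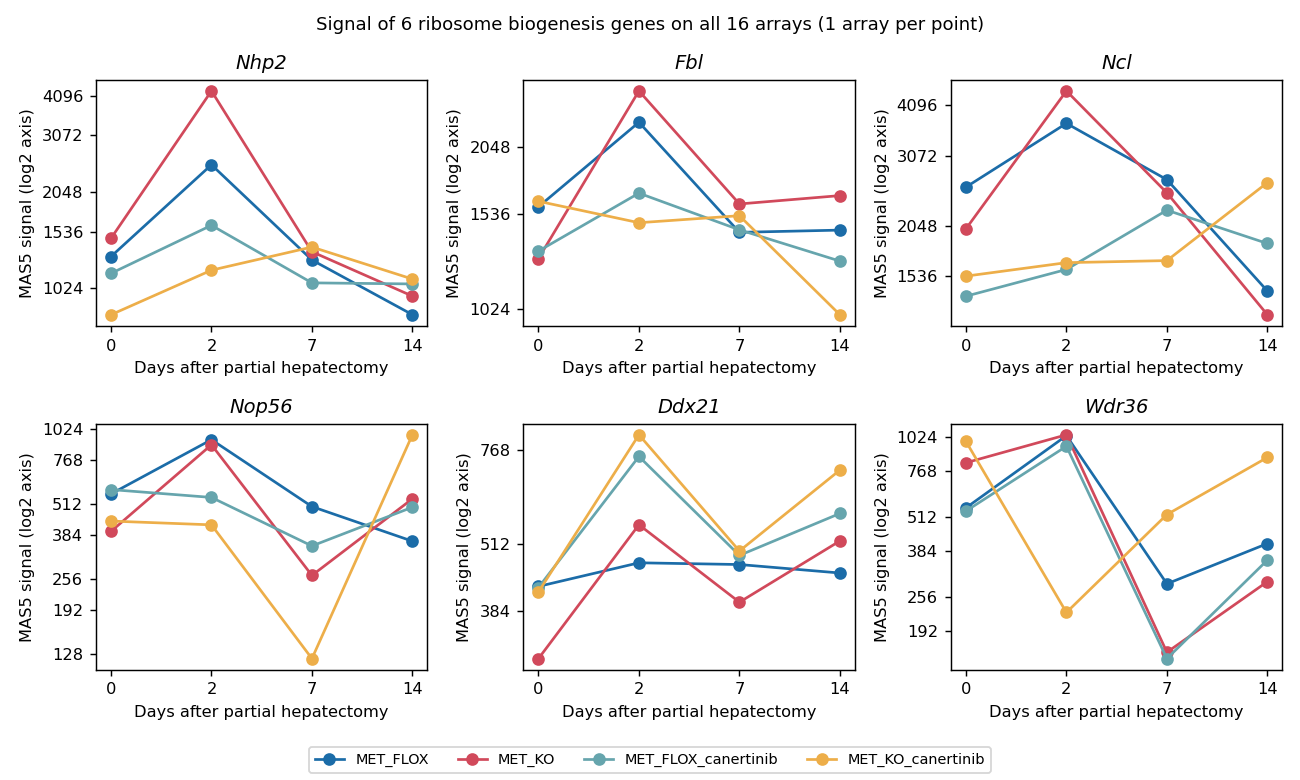
MAS5 signal (log2 axis) of 6 members against day after partial hepatectomy, with 1 array per point and 1 colour per arm. Nhp2, Fbl and Ncl are highest at day 2 in the arms without drug, Ddx21 is highest at day 2 in every arm, and Wdr36 is at 224.7 on the day 2 array of MET_KO_canertinib against 948 to 1047 on the other day 2 arrays.

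Among the nucleolar chaperones and regulators all 5 members had day 2 estimates above 0, with a median of 0.23. Ncl encodes nucleolin, an abundant RNA-binding nucleolar protein. Its signal was 2564, 3697, 2676 and 1413 over the 4 days in MET_FLOX and 2019, 4453, 2481 and 1233 in MET_KO. It was 1371, 1599, 2246 and 1855 in MET_FLOX_canertinib and 1538.5, 1662, 1682 and 2631 in MET_KO_canertinib. Values without drug peaked at day 2 and were lowest at day 14, and with canertinib the peak lay at day 7 or day 14. The day 2 difference was 0.50 ± 0.32 (SE, adjusted p = 0.638), and 3 other probe sets of Ncl that passed the filter gave -0.10, -0.05 and -0.01.

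Npm1, nucleophosmin, a histone and ribosome chaperone, read 3422, 4452, 3007 and 2158 in MET_FLOX and 3519.6, 4288, 2844 and 2160.4 in MET_KO. Its canertinib arrays read 1909, 1916, 2781 and 2512 in the floxed arm and 2020.2, 1896, 2633 and 2259 in the knockout arm. Both arms without drug were highest at day 2 and lowest at day 14. The day 2 estimate was 0.14 ± 0.23 (SE).

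Ddx21, an RNA helicase that links RNA polymerase I and precursor processing, had the smallest p of the members at day 2. It measured 427, 473, 469 and 452.5 in MET_FLOX and 313, 557, 399 and 519 in MET_KO. In MET_FLOX_canertinib it measured 425, 747, 488 and 585, and in MET_KO_canertinib 417, 820.1, 497 and 704.5. Day 2 was the highest day in each arm, and all 4 day 2 arrays were above all 4 day 0 arrays. The difference was 0.67 ± 0.19 (SE, adjusted p = 0.182). Its second probe set differed by -0.20, so the mean of both gave 0.24.

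RNA polymerase I genes moved little at day 2, with a median of 0.07. Ubtf, the factor that opens ribosomal DNA for transcription, read 1433, 1218, 1347 and 1902 in MET_FLOX and 1592, 1319.8, 1175 and 1979 in MET_KO. It read 1499, 2173, 1863 and 2142 in MET_FLOX_canertinib and 2213, 1853, 2301 and 2141 in MET_KO_canertinib. Day 2 was above day 0 in 1 of 4 arms, at -0.06 ± 0.17 (SE) over arms.

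Polr1a, the largest subunit of the polymerase, measured 699.5, 550.1, 485 and 803 in MET_FLOX and 603, 728, 797.5 and 1025 in MET_KO. On canertinib it measured 710, 865, 1393 and 1224 (floxed) and 972, 1024, 837.5 and 957 (knockout). No common day 2 peak was present, and the estimate was 0.07 ± 0.22 (SE). Rrn3, which recruits the polymerase in growing cells, carries both E-box matches printed above. Its signal was 513, 607, 414 and 451 in MET_FLOX and 422, 627, 379.7 and 411.5 in MET_KO. It was 365, 473, 402.5 and 228 in MET_FLOX_canertinib and 297, 452, 438 and 320.5 in MET_KO_canertinib. Rrn3 was highest at day 2 in 4 of 4 arms, and the difference of 0.43 ± 0.21 (SE) had an adjusted p of 0.501. The median of 7 further RNA polymerase I genes was -0.18, with 0 called.

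The small subunit processome, the complex that cuts the precursor, had a day 2 median of -0.05 over its 8 tested members, 2 of them above 0. Bms1, a GTPase of the complex, read 1991, 2440.4, 1752 and 1700 in MET_FLOX and 2435, 3341, 1996 and 1723 in MET_KO. Canertinib arrays read 2221, 2056, 2243 and 2496 in the floxed and 2451, 2423, 2409.9 and 1904 in the knockout arm. It peaked at day 2 in both arms without drug and in neither canertinib arm, with an estimate of 0.15 ± 0.18 (SE). Imp3, a component bound to the U3 small nucleolar RNA, had the lowest SD of the members. It measured 2391, 1664, 1385.5 and 2092 in MET_FLOX and 1750, 2079, 1676 and 1809.8 in MET_KO. The canertinib arms gave 1607, 1846, 1794 and 2163 and 1975, 2019, 1738 and 2029.8, floxed first. The estimate was -0.01 ± 0.16 (SE).

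Nop14, another factor of the complex, had the lowest day 2 estimate of the 35, -0.34 ± 0.25 (SE, adjusted p = 0.694). Its signal was 586, 422, 455 and 519.6 in MET_FLOX and 596.5, 331, 433 and 418 in MET_KO. It was 341, 413, 257 and 241 in MET_FLOX_canertinib and 397, 310.4, 517 and 498.5 in MET_KO_canertinib. Day 2 was below day 0 in 3 of 4 arms. Imp4, the partner of Imp3, was higher at day 2 in 4 of 4 arms, by 0.25 ± 0.16 (SE). Rrp9, left out of the tests, ranged from 44.2 to 182.2.

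Of the late small subunit factors, Bysl had the largest day 2 estimate and the largest SD of any member. Its signal was 864.5, 886, 960.3 and 359 in MET_FLOX and 1049.6, 1340.1, 867 and 146 in MET_KO. It was 98.3, 978.5, 643 and 466 in MET_FLOX_canertinib and 518, 791, 708 and 572 in MET_KO_canertinib. Its estimate of 1.02 ± 0.53 (SE, adjusted p = 0.532) leaned on MET_FLOX_canertinib, whose day 0 array was the lowest of the 16, and the second probe set gave 0.04. Tsr1, a factor of the pre-40S particle, read 426, 711, 441 and 299.9 in MET_FLOX and 681, 959, 314 and 272 in MET_KO. It read 314.5, 299.7, 565 and 728.5 in MET_FLOX_canertinib and 328, 479, 575 and 503 in MET_KO_canertinib. Tsr1 peaked at day 2 without drug, and its estimate was 0.41 ± 0.40 (SE), against -0.23 for its second probe set. Of the 22 members with more than 1 probe set past the filter, 10 had probe sets that differed in sign at day 2. Rrp12 ranged from 18.0 to 181.6 and was not tested.

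Large subunit assembly factors had a day 2 median of 0.19, with 6 of 8 above 0. All 8 were highest at day 2 in MET_KO and 6 were in MET_FLOX, against 3 in MET_FLOX_canertinib and 1 in MET_KO_canertinib. Gnl3, nucleostemin, a nucleolar GTPase, read 1855.5, 1856, 1422 and 1629 in MET_FLOX and 1296, 2440, 1363 and 2001 in MET_KO. It read 2177, 2148, 2138 and 1842 in MET_FLOX_canertinib and 1932, 1951.5, 1926 and 2816 in MET_KO_canertinib. Day 2 minus day 0 was 0.90 in MET_KO, while the other arms were at 0.00, -0.02 and 0.01.

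Bop1, which forms the PeBoW complex with Pes1 and Wdr12, measured 1337, 1391, 1329 and 1091 in MET_FLOX and 1197, 1366, 1165.5 and 1025.5 in MET_KO. It measured 945, 1166, 1023 and 795 in MET_FLOX_canertinib and 864, 913, 1116 and 1011 in MET_KO_canertinib. Its day 2 estimate was 0.16 ± 0.15 (SE). Nop2, an RNA methyltransferase with 1 E-box match, read 250.4, 491, 301 and 95.1 in MET_FLOX and 539, 542, 324 and 87.8 in MET_KO. It read 286, 475, 585 and 548 in MET_FLOX_canertinib and 209.8, 478, 299 and 327 in MET_KO_canertinib. Day 2 was above day 0 in 4 of 4 arms, by 0.01 to 1.13, and the estimate was 0.69 ± 0.44 (SE, adjusted p = 0.636).

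Related lists gave the same count of 0 called at day 2: 39 other small subunit factors (median 0.08), 41 other large subunit factors (0.05), 10 exosome genes (0.23), 42 tested of 79 ribosomal protein genes (0.10) and 13 MYC and mTORC1 genes (0.15). Myc itself read 244.3, 251.3, 284.5 and 168.6 over the 4 days in MET_FLOX and 188.9, 271.1, 177.1 and 57.4 in MET_KO. In MET_FLOX_canertinib it read 55.9, 178.7, 193.3 and 60.6, and in MET_KO_canertinib 57.1, 312, 29.1 and 500.8. Myc was higher at day 2 than at day 0 in 4 of 4 arms, by 1.03 ± 0.68 (SE, adjusted p = 0.649). The difference was small in MET_FLOX (244.3 to 251.3), and the estimate leaned on the canertinib arms. Their day 0 signals, 55.9 (floxed) and 57.1 (knockout), lay below the medians of those arrays, 251.3 and 244.

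Neither later day gave a call among the members. At day 7 against day 0, 0 members were called (0.00737% of all genes) and the median was 0.03. At day 14, 0 were called (0.081%) with a median of -0.02, which was 0.17 with array range as a term and -0.24 once array medians were made equal. The smallest adjusted p at day 14 was that of Wdr43, 0.45 ± 0.15 (SE, adjusted p = 0.204). With array range as a term its difference was 0.21 ± 0.16 (SE, adjusted p = 0.643).

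The next question was whether the day 2 response was smaller when both receptors were blocked. The contrasts for it were chosen with earlier results of these data known, so their p-values are not those of a fresh test. The day 2 response, day 2 against the other 3 days, was compared between MET_KO_canertinib and the mean of the other arms, and 0 members were called (0.0221% of all genes). The median was -0.19, with 25 of 35 below 0, against 0.12 for all genes. Against MET_FLOX alone it was -0.28, with 0 called (all genes 0%; 3 members and 677 genes had an unadjusted p below 0.05). In the cell cycle list the first contrast had a median of -2.27, and Top2a (-3.63 ± 0.42, adjusted p = 0.0338) and Rrm2 (-2.60 ± 0.33) were lower.

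The members lowest in that contrast, named after their values were seen, were Wdr36, Wdr12 and Nhp2. Wdr36, a processome protein, read 556, 1039, 288 and 408 in MET_FLOX and 822, 1047, 159 and 293.5 in MET_KO. It read 541, 948, 151 and 354 in MET_FLOX_canertinib and 988, 225, 525 and 860.5 in MET_KO_canertinib. Day 2 was the highest day in 3 arms and the lowest in MET_KO_canertinib. Its difference in response was -3.19 ± 0.49 (SE, adjusted p = 0.138), and it was -1.95 when its probe sets were averaged (adjusted p = 0.724). Wdr12, of the PeBoW complex, was at 67.5 at day 2 in MET_KO_canertinib against 308.4 to 505.2 in the other arms (-2.82, adjusted p = 0.690). Nhp2 differed by -1.06 ± 0.37 (SE, adjusted p = 0.787). Each of these contrasts rested on 1 day 2 array per arm.

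The largest number of calls came from the comparison of canertinib with no drug, 8 arrays against 8. In it 11 of 35 members passed (31.4%), a share near the 34.6% of all genes, and the member median was 0.02 against 0.14. Wdr75 (0.70 ± 0.19, SE, adjusted p = 0.0153) and Wdr43 (0.55 ± 0.11, adjusted p = 0.00413) of the processome were higher with drug. So were Gar1 (0.52), Polr1a (0.48), the Myb-binding protein Mybbp1a (0.47, adjusted p = 0.0470), Polr1b, the second polymerase subunit (0.45, adjusted p = 0.0497), and Ubtf (0.44). Lower with drug were Nop10 (-0.56 ± 0.14, adjusted p = 0.00846), Npm1 (-0.49), Pes1 (-0.42) and Bop1 (-0.34). With 1 array left out at a time, Wdr75, Wdr43, Gar1, Ubtf and Nop10 were called in 16 of 16 fits. Polr1a was called in 10, Bop1 in 9, Npm1 in 8, Polr1b in 3, and Mybbp1a and Pes1 in 2 each. Probe sets of the same gene differed in sign for 9 of the 22 members that had several, among them Wdr75 (second probe set -0.49) and Mybbp1a (-0.17).

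Drug and no-drug arrays overlapped for each of the 11. Wdr43 ranged from 940.3 to 1853 without drug and from 1607 to 2235 with it. Its no-drug signal was at most 1205 on the 6 arrays of the lower range, and it was 1749 in MET_FLOX and 1853 in MET_KO at day 14. Nop10 ranged from 5543 to 9115 without drug and from 3615 to 5994 with it. It was lower with drug in both genotypes at all 4 days.

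These calls moved with the array ranges described above. With array range as a term, which leaves day 14 to carry the drug difference, 0 members were called (15 of all genes). The member median became 0.25, against 0.01 for all genes, Npm1 turned from -0.49 to 0.14, and Nop10 stayed at -0.61 ± 0.27 (SE, adjusted p = 0.377). Centring each array on its median moved the median of all genes from 0.14 to -0.24, and then 13 members were called, 0 higher and 13 lower, against 936 higher of 5053 genes. Without the 2 arrays of Gapdh ratio above 1.5 the members called numbered 7, with no count of all genes given beside it. In the model without array range, 6 of 8 neutrophil markers were called higher with drug (summed signal 2202 to 6287 without and 3848 to 46814 with it). So were 4 of 5 lymphocyte markers (1212 to 3984 and 3204 to 4911) and 5 of 10 hepatocyte markers. Called higher in the other lists were 1 of 6 endothelial, 1 of 3 cholangiocyte and 1 of 3 erythroid markers. Called lower were 1 of 7 stellate and 1 of 2 pancreatic acinar markers, and 0 of 8 Kupffer cell and macrophage markers were called. The part of any of these in the members' differences was not tested. In whole liver, fewer cells of a type and less RNA per cell cannot be told apart.

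**Figure D5:**
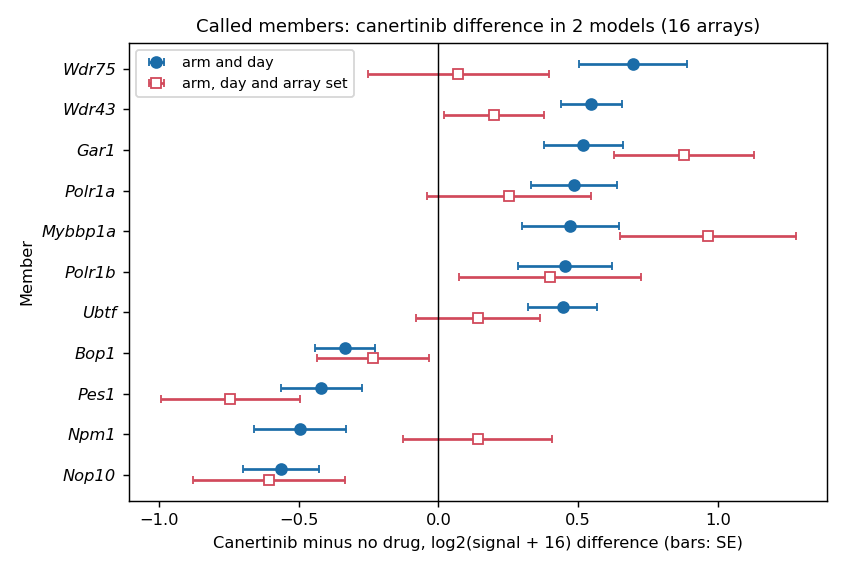
Points give the canertinib minus no drug difference on the log2(signal + 16) scale, with SE as bars, for the 11 called members, from the model with arm and day (filled) and with array range added (open). With the added term the estimates run from -0.74 in Pes1 to 0.96 in Mybbp1a, and Npm1 changes side of 0.

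Related lists also held calls with canertinib, beside the 34.6% of all genes called, and 0 of these calls passed with array range as a term. Of 41 other large subunit factors 10 were higher and 4 lower, led by Ddx55 (1.32), Rpf1 (1.32) and Rrp15 (-1.29). Of 39 genes listed as other small subunit factors 7 were higher and 2 lower, among them Pno1 (-0.76) and Utp23 (0.68). In the exosome, which trims precursor ends, Exosc3 (-1.12) and Exosc7 (-0.39) were lower and Exosc2 (0.43) higher. Ribosomal protein genes had 2 higher and 2 lower of 42, and the polymerase I subunit Polr1e was lower (-1.16). The mTORC1 activator Rheb (-0.995) and the MYC antagonist Mxd4 (-0.55) were lower.

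Met deletion was compared over both drug states, 8 knockout against 8 floxed arrays. In it 0 members were called (all genes 0%), and at an unadjusted p below 0.05 there were 0 members and 322 genes. The interaction of genotype and canertinib gave 0 members (0.0147% of all genes). At an unadjusted p below 0.05 it had 0 members and 601 genes (4.43%). For MET_KO_canertinib against MET_FLOX over the 4 days, 0 members were called (2.88%), and Wdr43 came closest (0.56 ± 0.15, SE, adjusted p = 0.0592). An unadjusted p below 0.05 was found there for 11 members (31.4%) and 3781 genes (27.8%). With array range as a term Wdr43 was at 0.21 ± 0.20 (SE, adjusted p = 0.749). Centring of the arrays gave 4 members, all lower, in that contrast. The count of all genes under that setting is not given here, so the 4 cannot be read as particular to the members.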

How the data were processed

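Liver RNA from 16 mouse samples was measured on Affymetrix arrays, 1 per arm and day. The deposited intensity values were MAS5 signals per the submitters' processing notes, with no version given; each array's 2% trimmed mean was 500. Controls and probe sets annotated to several genes or none were left out, and each gene was read from its brightest probe set by mean log2 value. Values were taken as log2(signal + 16). Genes above the array's median on at least 4 of 16 arrays entered a linear model (limma 3.58.1, R 4.3.3; arm and day as additive terms, 9 residual degrees of freedom; two-sided; Benjamini-Hochberg over 13577 genes). The day 2 response added a day 2 term per arm (6 residual degrees of freedom). With no repeated condition, p-values measure the spread that arm and day leave over. In the additive model this spread holds differences between arms in their course over the days as well as technical variation. The parts cannot be told apart, and a response limited to some arms widens the error of the day comparisons. The members, the lists and the day 2 response contrasts were chosen with earlier results of these data known. All 16 values were given for each role's 2 members of highest mean and the member with the largest absolute day 2 estimate. Other lists were named by up to 3 called genes each, plus Myc. The array ranges were defined from array medians, not from labels. In simulated data for the canertinib comparison 73 of 100 changes of size 1 and 98 of 100 of size 2 were recovered. Recovery for the other comparisons is not given here. The median SE of the members was 0.145 for canertinib, 0.206 for day 2 against day 0, and 0.376 and 0.461 for the day 2 response contrasts.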

Additional observations from a re-analysis of the deposited data

How the results depend on the processing

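The alternatives were pseudocounts of 1 and 64, no filter, array centring, quantile normalization, array range as a term, the mean of probe sets, no intensity trend, and each array left out. Chosen after seeing the data were 2 exclusions (the arrays of high Gapdh ratio, and the MET_KO_canertinib arm) and all alternatives for the day with the highest value. The day 2 median of the members was 0.13 to 0.23 over the alternatives on 16 arrays, with 0 called in each; leaving out 1 array gave a median of 0.11 to 0.30 and 0 to 1 called, and leaving out the MET_KO_canertinib arm gave 0. Members called with canertinib were 0 with array range as a term, 7 without the arrays of high Gapdh ratio, and 5 to 11 with 1 array left out. The member median with canertinib was -0.36 after centring and 0.25 with array range, and Npm1 became 0.14 with array range. For MET_KO_canertinib minus MET_FLOX, centring gave 4 members and a median of -0.25, array range a median of 0.37, and leaving out 1 array 0 to 3 members. No count of all genes is given here beside the 7, the 5 to 11, the 4 or the 0 to 3 members. The same holds for the 0 to 1 members called at day 2 with 1 array left out. The day 14 minus day 0 median, -0.02, was -0.24 after centring and 0.17 with array range as a term. Members over 1 at day 2 were 1 (pseudocount 64) or 6 (centring) in MET_FLOX, 2 (quantile) or 3 (mean of probe sets) in MET_KO, and 0 (pseudocount 64) or 2 (quantile) in MET_KO_canertinib. The cause of these shifts was not tested. The share of all genes over 1 under these settings is not given here. The counts of members over 1 therefore cannot be read as particular to the members. The day 2 response could not be fitted without a day 2 array. Counts of members with day 2 the highest stayed within 1.5 times.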
